A study of Mus musculus with 9 samples.

Results

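Translation initiation factors are the proteins that bring a messenger RNA and the initiator transfer RNA to the ribosome, and their genes were described here across 3 groups of mouse kidney, measured by RNA-seq 24 h after surgery that did or did not interrupt the blood supply. The members were the protein-coding genes whose GENCODE M21 symbol begins with Eif and a digit, Eif1 to Eif6. Of 29678 genes in the count files, 17860 were protein-coding and 54 of these matched. One eIF2 kinase gene among them is not reported here, which left 53 genes. A further 8 rows with such symbols were pseudogenes and were left out. Every one of the 53 passed the filter on low counts, so that none was lost before testing.

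The BHBNa_bIRI group had sodium beta-hydroxybutyrate, a ketone body given as its salt, before bilateral ischemia-reperfusion injury, in which the blood supply of both kidneys is stopped and restored. The bIRI group had the injury without that pretreatment, and the Sham group had the operation without the injury. The labels list 3 libraries for each group and name the tissue as kidney, but they give no dose or timing of the pretreatment, no strain, age or sex, no number of animals, and no statement that libraries came from separate animals. P-values therefore measure the spread between these libraries, which may be technical. The values deposited for bIRI replicate 2 were the rounded-down average of the other bIRI libraries in all 29678 genes, and 8 libraries were used, with 2 for bIRI.

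Initiation proceeds in steps. The factors eIF1, eIF1A, eIF3 and eIF5 assemble on the small ribosomal subunit with eIF2, which carries the initiator transfer RNA and GTP, while eIF4E, eIF4G and eIF4A bind the cap of the messenger RNA and unwind its leader, and eIF5B joins the large subunit at the start codon. Cells set the rate mainly at 2 points: kinases that phosphorylate eIF2 block its recharging by eIF2B, and 4E-binding proteins keep eIF4E from eIF4G until mTORC1 phosphorylates them. In the kidney the proximal tubule, which reabsorbs most of the filtrate, is the segment most prone to ischemic injury.

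The libraries held between 33477985 and 45909063 counts, and initiation factor genes took 0.762%, 0.720% and 0.646% of them in BHBNa_bIRI, 0.838% and 0.739% in bIRI, and 0.636%, 0.626% and 0.581% in Sham. Both injured groups lay above all 3 Sham libraries. Mitochondrially encoded genes took 24.0% to 30.3% of counts in BHBNa_bIRI, 15.9% in each bIRI library and 11.2% to 13.3% in Sham, and without them the shares were 0.927% to 1.00% in BHBNa_bIRI, 0.878% and 0.997% in bIRI, and 0.671% to 0.717% in Sham. The summed level after scaling for library composition was 7543 ± 488 CPM (counts per 1e6 of scaled library size; SD, n = 3) in BHBNa_bIRI, 7558 and 5398 CPM in bIRI replicates 1 and 3, and 6642 ± 159 CPM (SD, n = 3) in Sham. On that scale bIRI replicate 3 fell below every Sham library and bIRI replicate 1 above every one.

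Kidney markers were present as the tissue label states. The summed level of 6 proximal tubule genes was 1525 to 1686 CPM in BHBNa_bIRI, 1184 and 1358 CPM in bIRI and 10991 to 12350 CPM in Sham, and all 6 genes fell in both injured groups against Sham by edgeR's adjusted p. The 4 markers of injured tubule summed to 12573 to 13929 CPM in BHBNa_bIRI, 15202 and 24614 CPM in bIRI and 387 to 460 CPM in Sham, and all 4 rose in both. The summed level of 4 neutrophil markers was 34.5 to 57.7 CPM in BHBNa_bIRI, 4.17 and 9.17 CPM in bIRI and 0.753 to 1.65 CPM in Sham, and the 3 that passed the filter were called higher in BHBNa_bIRI against both bIRI and Sham. Their calls against bIRI were lost without BHBNa_bIRI replicate 1, Sham replicate 1 or Sham replicate 2, where no gene of the whole table passed in that comparison. Umod and Slc12a1, the markers of the thick ascending limb, summed to 237 to 790 CPM in BHBNa_bIRI, 1445 and 3978 CPM in bIRI replicates 1 and 3, and 1689 to 3156 CPM in Sham. Slc12a1 alone had 25.3, 17.8 and 21.3 CPM in BHBNa_bIRI, 33.1 and 1114 CPM in bIRI, and 503, 542 and 272 CPM in Sham, and fell in BHBNa_bIRI against Sham, at -4.35 (SE 0.97; edgeR adjusted p = 0.00593). Its level in bIRI replicate 1 was near that of BHBNa_bIRI, and in bIRI replicate 3 it was above every Sham library. Umod had 765, 219 and 641 CPM in BHBNa_bIRI, 1412 and 2865 CPM in bIRI, and 2394, 2614 and 1417 CPM in Sham. In bIRI replicate 1 Umod was thus above every BHBNa_bIRI library and just below the lowest Sham library. Against bIRI both fell in BHBNa_bIRI, Slc12a1 at -4.74 (edgeR adjusted p = 0.0295) and Umod at -1.98 (edgeR adjusted p = 0.0379). The distal tubule marker Slc12a3 had 107, 88.5 and 94.5 CPM in BHBNa_bIRI, 95.1 and 462 CPM in bIRI, and 549, 329.8 and 254 CPM in Sham, and it fell in BHBNa_bIRI against Sham, at -1.97 (SE 0.50; edgeR adjusted p = 0.0116). Calb1, another distal marker, had 26.2, 30.7 and 43.6 CPM in BHBNa_bIRI, 143 and 142 CPM in bIRI, and 214, 199 and 209.8 CPM in Sham and fell in BHBNa_bIRI against Sham, at -2.63 (SE 0.21; edgeR adjusted p = 3.01e-05), and against bIRI, at -2.09 (SE 0.22; edgeR adjusted p = 0.0266). The calls of Slc12a1, Umod and Calb1 against bIRI were lost without the same libraries as the neutrophil calls. The part of these shifts in cell makeup in the results that follow was not tested, and in whole kidney fewer cells of a type and less RNA per cell cannot be told apart.

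**Figure D1:**
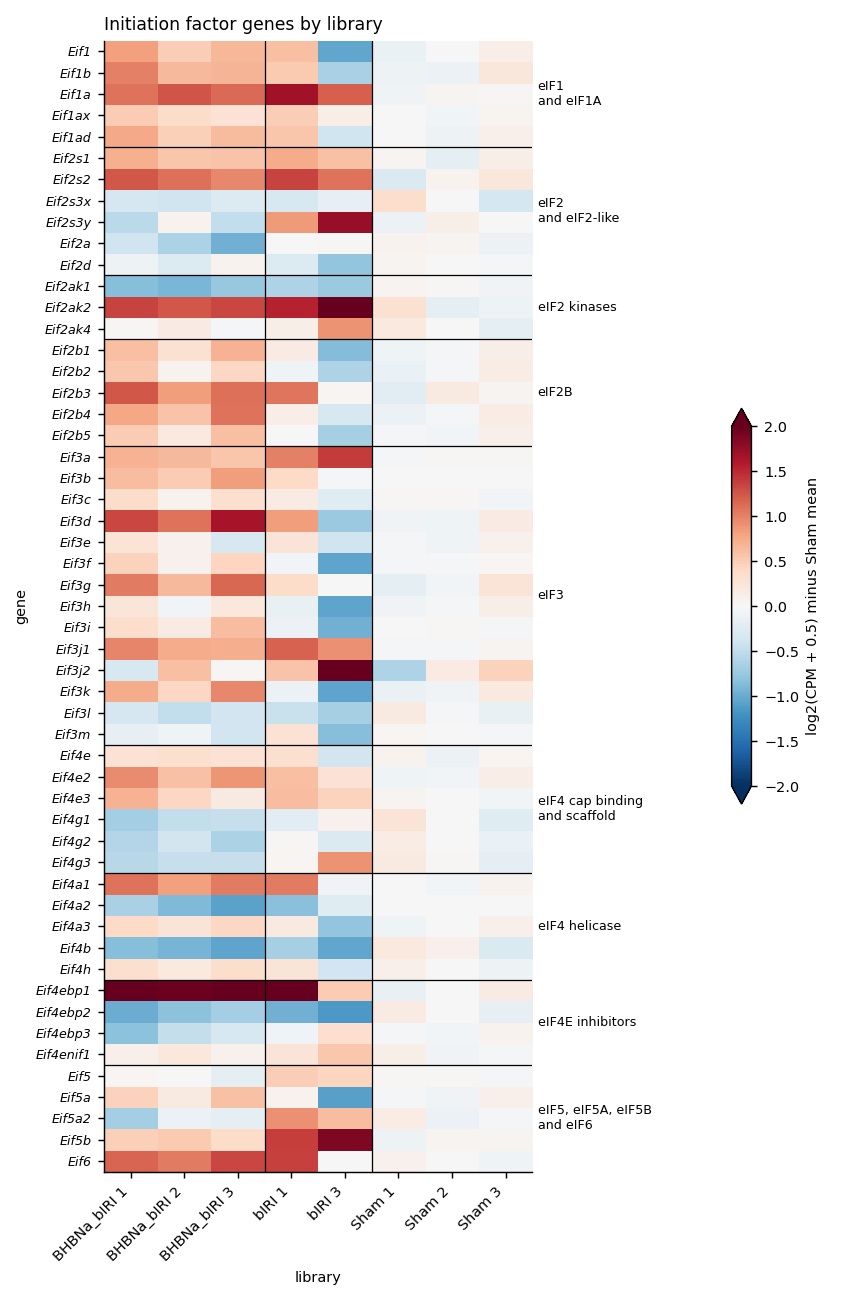
The 53 initiation factor genes (rows, grouped by factor) in each of 8 libraries (columns, named by group and replicate), coloured by log2(CPM + 0.5) minus the mean of the 3 Sham libraries, with colours ending at 2 either way. Eif4ebp1 is red in all 5 injured libraries, and the columns of bIRI replicate 1 and bIRI replicate 3 take opposite colours for many genes, 21 of 53 by sign.

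Per kilobase of transcript, the most abundant initiation factor message was Eif5a, whose protein carries the modified residue hypusine and acts mainly on elongating ribosomes. In reads per kilobase and per 1e6 counts it stood at 568 in BHBNa_bIRI, 324 in bIRI and 426 in Sham. Eif1 and Eif4a1 came next in each group, at 446 and 355 in BHBNa_bIRI, 281 and 269 in bIRI, and 281 and 179 in Sham on the same scale. At the other end, Eif4ebp3 and Eif3j2 had the lowest levels in BHBNa_bIRI and Sham, at 0.229 and 0.257 in BHBNa_bIRI and 0.626 and 0.230 in Sham, while in bIRI Eif4ebp3 and Eif5a2 were lowest at 0.763 and 1.56.

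In the comparison of bIRI against Sham, which addresses what the injury did, 11 of 53 initiation factor genes rose and 4 fell at an adjusted p of 0.05 in edgeR's quasi-likelihood test. The risers included the eIF2 beta subunit gene Eif2s2, the largest eIF3 subunit gene Eif3a, the subunit joining factor gene Eif5b, the eIF2 kinase gene Eif2ak2 and the 4E-binding protein gene Eif4ebp1. The fallers were Eif2ak1, Eif3l, Eif4b and Eif4ebp2. Members called made up 28.3%, against a background of 35.1% of the 17967 genes tested (18.9% higher and 16.2% lower), and the members' median log2 fold change was 0.05, against 0.08 over all genes tested. The libraries of the groups did not overlap for 25 of 53 members (47.2%), against 55.9% of all genes, and for 16 (30.2%) both bIRI libraries lay above all Sham libraries, against 28.7%.

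Of the 15 calls, 8 held in each of 19 alternative fits, 8 of which leave out a library, namely Eif1a, Eif2ak1, Eif2ak2, Eif2s2, Eif2s3y, Eif3a, Eif4ebp2 and Eif5b. The 2 bIRI libraries differed, with a median log2 distance of the members from the Sham mean of 0.26 in replicate 1 and -0.16 in replicate 3. A fit with only 1 of them carries no spread within bIRI, so no count of calls is given for it. Offsets for transcript length and GC content ended the calls of Eif2s1, Eif3l and Eif5a2. With these offsets 20 members were called (37.7%, against 36.7% of all genes), and 12 of the 15 calls were kept.

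In BHBNa_bIRI against Sham, 19 members rose and 7 fell in the same test, so that 26 of 53 (49.1%) passed, against 43.6% of all genes. Members higher were 35.8%, against 21.3% of all genes, and members lower 13.2%, against 22.2%. The median log2 fold change of the members was 0.36, against 0.04 over all genes tested. The largest rises were those of Eif4ebp1, the eIF3 subunit gene Eif3d, Eif2ak2 and the ribosome anti-association factor gene Eif6, and the largest falls those of Eif4b, Eif4a2, Eif2ak1 and Eif4ebp2. For 42 of 53 members (79.2%) the libraries of the groups did not overlap, against 64.8% of all genes, and for 31 (58.5%) all BHBNa_bIRI libraries lay above all Sham libraries, against 32.6%, while for 11 (20.8%) they lay below, against 32.2%. At an unadjusted p under 0.05 there were 31 members (58.5%), against 52.1% of all genes. Of the 26 calls, 17 held in each of the 19 alternatives, and without Sham replicate 2 the count was 17 (32.1%, against 30.5% of all genes), with 12 higher and 5 lower. The length and GC offsets ended the calls of Eif1b, Eif3k and Eif4g2. With them 30 members were called (56.6%, against 46.1% of all genes), and 23 of the 26 calls were kept.

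In BHBNa_bIRI against bIRI, the comparison of the pretreatment, 2 members rose and 5 fell, which is 13.2% of 53, against 13.5% of all genes (4.88% higher and 8.65% lower). Eif2b4 and Eif3k were the risers, and Eif2a, Eif2s3y, Eif4g3, Eif5a2 and Eif5b the fallers. The median log2 fold change of the members was 0.14, against -0.05 over all genes tested. For 28 members (52.8%) the libraries did not overlap, against 46% of all genes. None of the 7 calls held in every one of the 19 alternatives. Each was lost without any 1 of 4 to 7 of the 8 libraries. Leaving out BHBNa_bIRI replicate 1 or 3 or Sham replicate 1 or 2 left 0 members called by edgeR, with 18 to 21 at an unadjusted p under 0.05, while DESeq2 on all 8 libraries called 18 (34.0%, against 25.1% of all genes). Those 4 fits called almost nothing in the whole table either, 1 gene without BHBNa_bIRI replicate 3 and 0 in the other 3. Without BHBNa_bIRI replicate 2 the count was 4 (7.55%, against 6.49% of all genes) and without Sham replicate 3 it was 2 (3.77%, against 5.73%). No count is given here without bIRI replicate 1 or 3, since a single bIRI library carries no spread within its group. These comparisons share libraries, the Sham or the bIRI ones, and their counts are not independent of each other.

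**Figure D2:**
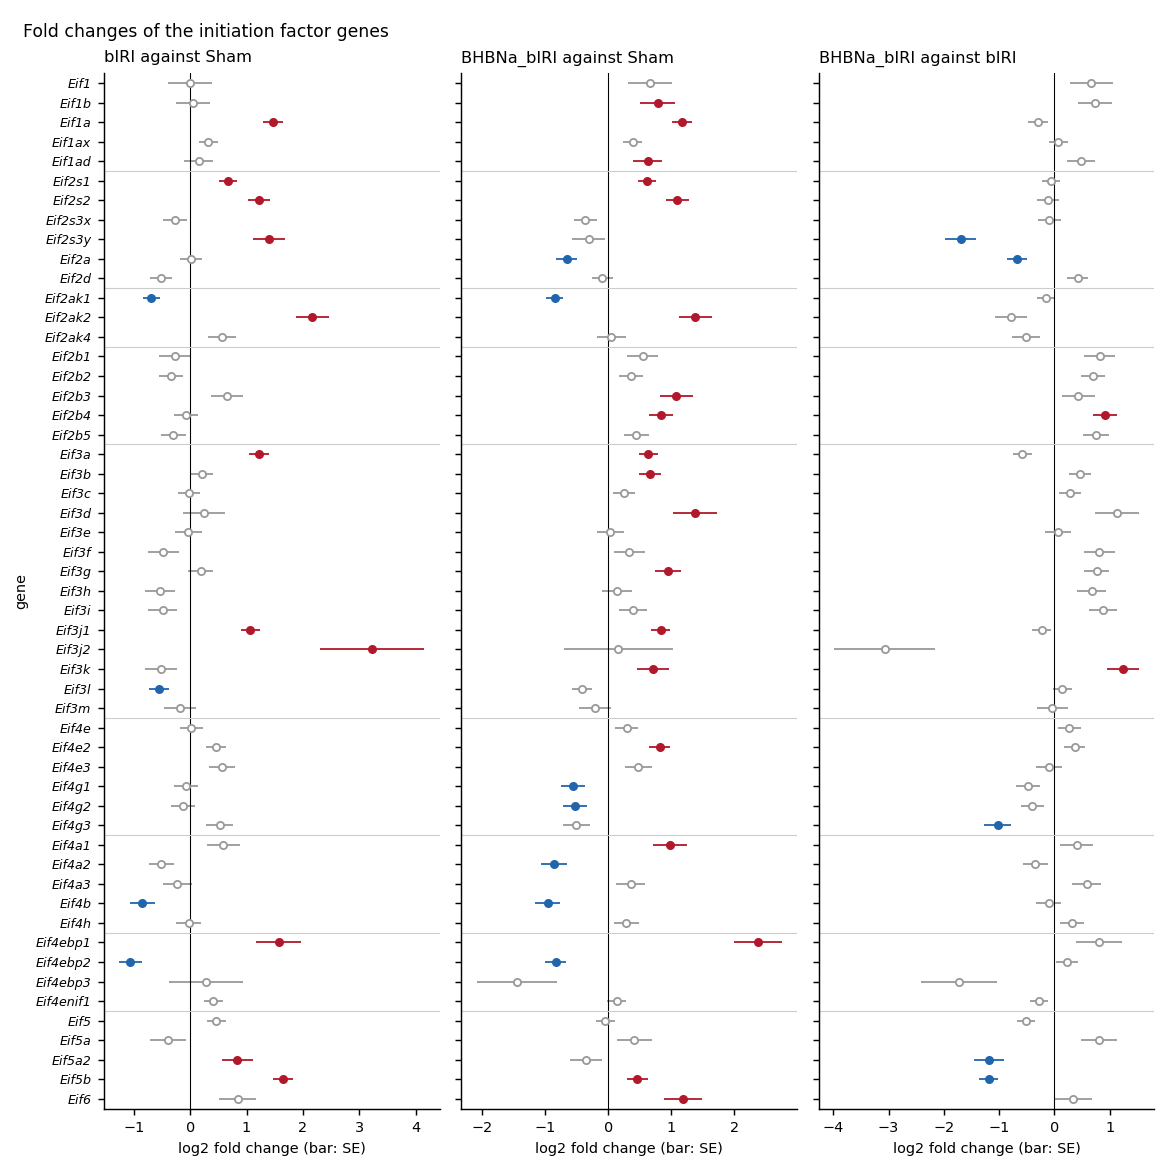
Log2 fold change (horizontal axis) of each of the 53 genes (vertical axis, in the order of the factors) in 3 comparisons, 1 panel each, with bars of 1 standard error. Filled red points passed the edgeR test as higher, filled blue points as lower, and open grey points did not pass; the 3 panels hold 15, 26 and 7 filled points.

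Among the genes of eIF1 and eIF1A, which scan for the start codon and fix its choice, 1 of 5 rose in bIRI against Sham and 3 of 5 rose in BHBNa_bIRI against Sham. Counts for this and each family below are to be read beside all genes tested. Among those, 18.9% were higher and 16.2% lower in bIRI against Sham. The shares were 21.3% and 22.2% in BHBNa_bIRI against Sham, and 4.88% and 8.65% in BHBNa_bIRI against bIRI. Eif1a, 1 of the genes for eIF1A, had 74.8, 84.3 and 77.9 CPM in BHBNa_bIRI, 113 and 81.3 CPM in bIRI, and 33.2, 36.6 and 35.5 CPM in Sham. All 5 injured libraries stood above the 3 Sham libraries, and bIRI replicate 1 was the highest. The log2 fold change was 1.47 (SE 0.18; edgeR adjusted p = 0.0004) in bIRI against Sham and 1.17 (SE 0.16; edgeR adjusted p = 0.000537) in BHBNa_bIRI against Sham. Its X-linked counterpart Eif1ax did not pass in either comparison against Sham, at 0.32 (SE 0.17; edgeR adjusted p = 0.17) in bIRI and 0.39 (SE 0.15; edgeR adjusted p = 0.0632) in BHBNa_bIRI. The eIF1 gene Eif1b and Eif1ad, named for its eIF1A domain, passed against Sham only with BHBNa_bIRI, at 0.78 (SE 0.28; edgeR adjusted p = 0.0442) and 0.63 (SE 0.23; edgeR adjusted p = 0.0494), and both calls were lost without any 1 of the 6 libraries compared (adjusted p 0.0616 to 0.159). Eif1 itself had 522 to 659 CPM in BHBNa_bIRI, 562 and 180 CPM in bIRI and 338 to 406 CPM in Sham. Its bIRI libraries lay above and below the Sham range.

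The genes of eIF2, the carrier of the initiator transfer RNA, are described next. Of the 6 genes of eIF2 and eIF2-like factors, 3 rose in bIRI against Sham, 2 rose and 1 fell in BHBNa_bIRI against Sham, and 2 fell in BHBNa_bIRI against bIRI. Among all genes tested, 18.9% rose in the first comparison, and 21.3% rose and 22.2% fell in the second. In the last, 8.65% fell. Eif2s2, for the beta subunit, had 106, 96.2 and 87.2 CPM in BHBNa_bIRI, 114 and 95.8 CPM in bIRI, and 36.3, 46.9 and 52.3 CPM in Sham. The injured libraries were all above Sham, by 1.22 (SE 0.20; edgeR adjusted p = 0.00164) for bIRI and 1.10 (SE 0.18; edgeR adjusted p = 0.00125) for BHBNa_bIRI on the log2 scale. A processed pseudogene, Gm9892, shares 27.8% of the 50-base words of Eif2s2 and had 204 to 617 counts, against 1461 to 5223 for Eif2s2. Eif2s1, for the alpha subunit that the stress kinases phosphorylate, had 72.7, 65.2 and 66.1 CPM in BHBNa_bIRI, 74.7 and 67.02 CPM in bIRI, and 46.3, 39.1 and 47.98 CPM in Sham. Neither injured group overlapped with Sham. On the log2 scale bIRI was higher by 0.67 (SE 0.16; edgeR adjusted p = 0.011) and BHBNa_bIRI by 0.61 (SE 0.15; edgeR adjusted p = 0.00838), although both calls were lost without Sham replicate 2, at adjusted p = 0.0666 and 0.0608 in edgeR. With length and GC offsets the value for bIRI against Sham was 0.33 (SE 0.16; edgeR adjusted p = 0.136).

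The gamma subunit has a gene on each sex chromosome. Eif2s3y, the Y-linked copy, had 10.5, 16.3 and 10.9 CPM in BHBNa_bIRI, 28.3 and 53.1 CPM in bIRI, and 14.2, 16.8 and 15.6 CPM in Sham. The bIRI libraries were above all others, replicate 3 the highest, and BHBNa_bIRI and Sham overlapped. Eif2s3y was higher in bIRI against Sham by 1.39 (SE 0.28; edgeR adjusted p = 0.00542) and lower in BHBNa_bIRI against bIRI, at -1.70 (SE 0.29; edgeR adjusted p = 0.0275). The X-linked copy Eif2s3x had 34.99, 33.5 and 36.5 CPM in BHBNa_bIRI, 35.1 and 39.4 CPM in bIRI, and 56.3, 44.04 and 34.5 CPM in Sham, and none of its comparisons passed. Other Y-linked genes did not share one order. Ddx3y had 33.03, 28.4 and 33.6 CPM in BHBNa_bIRI, 39.2 and 29.1 CPM in bIRI, and 13.5, 14.8 and 18.3 CPM in Sham, and it was higher against Sham in both injured groups, by 1.14 (SE 0.20; edgeR adjusted p = 0.00258) in bIRI and 1.03 (SE 0.18; edgeR adjusted p = 0.00195) in BHBNa_bIRI. Kdm5d had 5.71, 5.64 and 4.21 CPM in BHBNa_bIRI, 7.22 and 19.4 CPM in bIRI, and 7.85, 7.79 and 6.72 CPM in Sham, high in bIRI replicate 3 alone, and passed in BHBNa_bIRI against bIRI, at -1.36 (SE 0.36; edgeR adjusted p = 0.0412). That call was lost without BHBNa_bIRI replicate 1, Sham replicate 1 or Sham replicate 2, where no gene of the whole table passed. Uty had 9.70, 9.86 and 6.25 CPM in BHBNa_bIRI, 12.8 and 17.9 CPM in bIRI, and 9.42, 8.54 and 9.64 CPM in Sham, with both bIRI libraries above all others, and passed in bIRI against Sham, at 0.74 (SE 0.25; edgeR adjusted p = 0.0465). Xist, the marker of female tissue, was at or near 0 in all 8 libraries, with at most 0.109 CPM. The part of these Y-linked levels in the Eif2s3y result was not tested.

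Eif2a, whose product delivers initiator transfer RNA without being part of eIF2, had 36.4, 30.98 and 24.4 CPM in BHBNa_bIRI, 48.6 and 49.01 CPM in bIRI, and 50.4, 49.9 and 44.7 CPM in Sham. The BHBNa_bIRI libraries were below all others, while bIRI and Sham overlapped. It fell in BHBNa_bIRI against Sham, at -0.66 (SE 0.17; edgeR adjusted p = 0.0119), and against bIRI, at -0.67 (SE 0.19; edgeR adjusted p = 0.0444), and in bIRI against Sham it was at 0.01 (SE 0.19; edgeR adjusted p = 0.963). Eif2d, for a factor of recycling and reinitiation, had 41.6 to 53.1 CPM in BHBNa_bIRI, 41.5 and 29.0 CPM in bIRI and 49.1 to 52.0 CPM in Sham, and passed in no comparison.

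Of the eIF2 kinase genes described here, Eif2ak2 rose, Eif2ak1 fell and Eif2ak4 did not pass against Sham in either injured group. Eif2ak2 encodes PKR, which senses double-stranded RNA and is an interferon-induced gene. It had 12.6, 11.7 and 12.6 CPM in BHBNa_bIRI, 14.6 and 27.98 CPM in bIRI, and 5.86, 4.0 and 4.32 CPM in Sham. Every injured library was above Sham and bIRI replicate 3 stood far above the rest. Against Sham it rose by 2.17 (SE 0.29; edgeR adjusted p = 0.000658) in bIRI and 1.38 (SE 0.27; edgeR adjusted p = 0.00288) in BHBNa_bIRI, both called in each of the 19 alternatives. The value for BHBNa_bIRI against bIRI was -0.79 (SE 0.28; edgeR adjusted p = 0.0863). The first 30 transcribed bases of Eif2ak2 in RefSeq (GRCm38.p6, chr17:78882543-78882572, minus strand) are shown because they hold the core of the interferon-stimulated response element, GAAA repeated after any 2 bases, in capitals, from base 19.
Eif2ak2: gaaggcggagtccgccggGAAAACGAAAca
The motif, searched on both strands after the values of Eif2ak2 were known, was in 4 of 42 members with a RefSeq promoter entry (9.52%; Eif2ak2, Eif2s1, Eif2s3x and Eif3a) and in 3.86% of 12454 tested genes. A gene was counted if any of its windows held the motif.

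Eif2ak1, for the heme-regulated kinase, had 42.4, 40.8 and 45.3 CPM in BHBNa_bIRI, 50.1 and 45.6 CPM in bIRI, and 79.8, 78.4 and 73.05 CPM in Sham. All injured libraries were below Sham, at -0.69 (SE 0.15; edgeR adjusted p = 0.0079) in bIRI and -0.85 (SE 0.14; edgeR adjusted p = 0.00108) in BHBNa_bIRI. Eif2ak4, for GCN2, which responds to uncharged transfer RNA, had 10.9, 11.99 and 10.5 CPM in BHBNa_bIRI, 11.6 and 20.3 CPM in bIRI, and 12.3, 10.7 and 9.30 CPM in Sham. Only bIRI replicate 3 left the range of the others, and no comparison passed.

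The 5 genes of eIF2B, the exchange factor that recharges eIF2 with GTP, gave 2 rises in BHBNa_bIRI against Sham and 1 in BHBNa_bIRI against bIRI, where the BHBNa_bIRI libraries lay above both bIRI libraries for 4 of 5, against 15 of the 53 members (28.3%) and 22.2% of all genes. Eif2b4, for the delta subunit, had 56.3, 48.6 and 69.96 CPM in BHBNa_bIRI, 35.9 and 26.04 CPM in bIRI, and 30.1, 31.7 and 36.3 CPM in Sham. All BHBNa_bIRI libraries were above all others, and the log2 fold change was 0.91 (SE 0.22; edgeR adjusted p = 0.0341) against bIRI and 0.83 (SE 0.19; edgeR adjusted p = 0.00687) against Sham. Eif2b3, for the gamma subunit, had 36.9, 27.8 and 33.4 CPM in BHBNa_bIRI, 32.7 and 15.8 CPM in bIRI, and 12.97, 17.5 and 15.9 CPM in Sham. It rose against Sham with BHBNa_bIRI, at 1.08 (SE 0.26; edgeR adjusted p = 0.00921), and bIRI, with replicate 1 above Sham and replicate 3 inside its range, was at 0.65 (SE 0.29; edgeR adjusted p = 0.108). The catalytic epsilon subunit gene Eif2b5 had 129.9, 105 and 139 CPM in BHBNa_bIRI, 91.3 and 57.1 CPM in bIRI, and 88.8, 87.5 and 97.9 CPM in Sham. BHBNa_bIRI lay above the other groups, bIRI replicate 3 lay below Sham, and no comparison passed (0.45 (SE 0.20; edgeR adjusted p = 0.0964) against Sham and 0.75 (SE 0.23; edgeR adjusted p = 0.0569) against bIRI). The alpha and beta subunit genes Eif2b1 and Eif2b2 gave 0.82 (SE 0.28; edgeR adjusted p = 0.0761) and 0.70 (SE 0.22; edgeR adjusted p = 0.0609) in BHBNa_bIRI against bIRI. The median distance of the 5 genes from the Sham mean was 0.61, 0.30 and 0.69 in BHBNa_bIRI and 0.14 and -0.62 in bIRI replicates 1 and 3 on the log2 scale.

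The 14 genes of eIF3, the multi-subunit platform of the small ribosomal subunit, gave 3 higher and 1 lower in bIRI against Sham, 6 higher in BHBNa_bIRI against Sham, and 1 higher in BHBNa_bIRI against bIRI. Among all genes tested, 18.9% were higher and 16.2% lower in the first comparison. In the second and last, 21.3% and 4.88% were higher. Eif3a, for the largest subunit, had 116, 113 and 105 CPM in BHBNa_bIRI, 145 and 189 CPM in bIRI, and 69.1, 72.6 and 72.6 CPM in Sham. The 3 groups did not overlap, with bIRI highest and Sham lowest. It rose by 1.22 (SE 0.17; edgeR adjusted p = 0.0008) in bIRI and 0.64 (SE 0.15; edgeR adjusted p = 0.00905) in BHBNa_bIRI against Sham, and stood at -0.58 (SE 0.17; edgeR adjusted p = 0.0501) in BHBNa_bIRI against bIRI. Eif3j1, for the loosely bound subunit at the decoding site, had 43.1, 36.6 and 35.9 CPM in BHBNa_bIRI, 49.5 and 41.1 CPM in bIRI, and 20.97, 21.3 and 22.5 CPM in Sham. The injured libraries were all above Sham, by 1.07 (SE 0.16; edgeR adjusted p = 0.00129) in bIRI and 0.83 (SE 0.15; edgeR adjusted p = 0.00201) in BHBNa_bIRI, and the value for bIRI was 0.65 (SE 0.19; edgeR adjusted p = 0.0275) with length and GC offsets.

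Eif3d, for the subunit that can bind the cap of selected messages, had 122, 102 and 151 CPM in BHBNa_bIRI, 85.9 and 28.4 CPM in bIRI, and 45.7, 44.95 and 53.5 CPM in Sham. The BHBNa_bIRI libraries were the 3 highest, while the bIRI libraries stood on either side of Sham. It rose in BHBNa_bIRI against Sham, at 1.38 (SE 0.35; edgeR adjusted p = 0.0105), and was at 0.25 (SE 0.38; edgeR adjusted p = 0.645) in bIRI against Sham. Taken with 1 bIRI library at a time, that second value was 0.84 with replicate 1 and -0.83 with replicate 3. A single library carries no spread within bIRI, so no p-value is given. An antisense gene, Gm17638, overlaps 43.3% of the exon bases of Eif3d and had 2 to 22 counts, against 1300 to 5546 for Eif3d, and the strand setting of the counting is not given in the sources used here.

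Eif3k, for a peripheral subunit, had 206, 164 and 239 CPM in BHBNa_bIRI, 113 and 59.2 CPM in bIRI, and 112, 117 and 142 CPM in Sham. The BHBNa_bIRI libraries were above all others. Eif3k rose in BHBNa_bIRI against bIRI, at 1.24 (SE 0.29; edgeR adjusted p = 0.0337), and against Sham, at 0.72 (SE 0.25; edgeR adjusted p = 0.0438), the second call being lost without any 1 of 5 libraries (adjusted p 0.0627 to 0.142 in edgeR). Without bIRI replicate 3 the first value was 0.84. Eif3g, for a subunit that binds RNA, had 144, 110.05 and 155 CPM in BHBNa_bIRI, 90.8 and 69.9 CPM in bIRI, and 60.98, 67.2 and 83.9 CPM in Sham. Its BHBNa_bIRI libraries exceeded the others, and it rose against Sham by 0.95 (SE 0.20; edgeR adjusted p = 0.00451), while BHBNa_bIRI against bIRI gave 0.76 (SE 0.23; edgeR adjusted p = 0.0523). Eif3b, for a core scaffold subunit, also rose in BHBNa_bIRI against Sham, by 0.67 (SE 0.18; edgeR adjusted p = 0.0133), a call lost without Sham replicate 1 or Sham replicate 2 (adjusted p 0.0547 to 0.0639).

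Eif3l was the member of the complex that fell, in bIRI against Sham. It had 137, 123 and 134 CPM in BHBNa_bIRI, 128 and 109.9 CPM in bIRI, and 197, 170.4 and 158 CPM in Sham. Every injured library was below Sham, with -0.56 (SE 0.18; edgeR adjusted p = 0.038) in bIRI, a call kept in 6 of 19 alternatives and lost without any 1 of 7 libraries, and -0.41 (SE 0.16; edgeR adjusted p = 0.0596) in BHBNa_bIRI. Eif3c, for a core subunit, had 275, 224 and 266 CPM in BHBNa_bIRI, 239 and 181 CPM in bIRI, and 218, 217 and 207 CPM in Sham, and no comparison passed. The remaining subunit genes Eif3e, Eif3f, Eif3h, Eif3i and Eif3m passed in no comparison and ranged from -0.54 to -0.03 in bIRI against Sham, from -0.21 to 0.39 in BHBNa_bIRI against Sham and from -0.04 to 0.88 in BHBNa_bIRI against bIRI. Eif3j2, a near copy of Eif3j1 with 90.8% of its 50-base words in common, had 0.303, 1.01 and 0.516 CPM in BHBNa_bIRI, 0.985 and 9.36 CPM in bIRI, and 0.149, 0.616 and 0.879 CPM in Sham. Its call in bIRI against Sham, 3.23 (SE 0.92; edgeR adjusted p = 0.0235), rested on bIRI replicate 3, and without that library the value was 0.85. Reads of Eif3j2 cannot be told from those of Eif3j1 where the copies are identical.

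The spread among eIF3 subunit genes was compared by library. Over 13 subunits, without the near copy, the SD of the log2 distance from the Sham mean was 0.47, 0.43 and 0.61 in BHBNa_bIRI, 0.49 and 0.78 in bIRI replicates 1 and 3, and 0.09, 0.04 and 0.11 in Sham. Since the distance is taken from the Sham mean, smaller values in Sham follow in part from the measure. In bIRI replicate 3 the subunits ran from -1.05 for Eif3f to 1.39 for Eif3a, and in BHBNa_bIRI replicate 3 from -0.39 for Eif3m to 1.64 for Eif3d.

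Of the 6 cap-binding and scaffold genes, 1 rose and 2 fell in BHBNa_bIRI against Sham and 1 fell in BHBNa_bIRI against bIRI. Among all genes tested, 21.3% rose and 22.2% fell in the first comparison and 8.65% fell in the second. Eif4e, for the cap-binding protein itself, had 103, 105 and 103 CPM in BHBNa_bIRI, 106 and 65.7 CPM in bIRI, and 89.1, 78.3 and 86.6 CPM in Sham. The BHBNa_bIRI libraries were above Sham and the bIRI libraries on either side of it, and no comparison passed. Eif4e2, for the related protein that represses translation of selected messages, had 90.8, 71.1 and 87.7 CPM in BHBNa_bIRI, 71.6 and 57.7 CPM in bIRI, and 44.6, 45.6 and 51.5 CPM in Sham. All injured libraries were above Sham, with 0.82 (SE 0.16; edgeR adjusted p = 0.00345) in BHBNa_bIRI and 0.45 (SE 0.18; edgeR adjusted p = 0.0768) in bIRI. Eif4e3, another relative, ran from 6.66 to 9.74 CPM in BHBNa_bIRI, stood at 9.17 and 8.11 CPM in bIRI, and ran from 5.56 to 6.09 CPM in Sham, with no call.

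The scaffold gene Eif4g1, whose protein ties eIF4E to eIF4A and eIF3, had 226, 256 and 264 CPM in BHBNa_bIRI, 310.2 and 385 CPM in bIRI, and 433, 359 and 306 CPM in Sham. BHBNa_bIRI was below both other groups, which overlapped. Eif4g2, for the relative that lacks the eIF4E site, had 504, 581 and 485 CPM in BHBNa_bIRI, 767 and 615 CPM in bIRI, and 832, 749 and 686 CPM in Sham, with the same order. Both fell in BHBNa_bIRI against Sham, at -0.56 (SE 0.19; edgeR adjusted p = 0.0416) and -0.53 (SE 0.19; edgeR adjusted p = 0.0474), and the calls were lost without any 1 of 5 and of 6 libraries (adjusted p 0.0635 to 0.174). Eif4g3, for the second full-length scaffold, had 58.3, 62.2 and 62.3 CPM in BHBNa_bIRI, 88.8 and 159.9 CPM in bIRI, and 97.1, 87.5 and 74.8 CPM in Sham. Here bIRI replicate 3 was the high library and BHBNa_bIRI was below all the others. Eif4g3 fell in BHBNa_bIRI against bIRI, at -1.03 (SE 0.24; edgeR adjusted p = 0.0327), and without bIRI replicate 3 that was -0.55.

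Of the helicase genes, Eif4a1 and Eif4a2 encode closely similar proteins that unwind the leader of the message, and in BHBNa_bIRI against Sham they changed in opposite directions. Eif4a1 had 676, 561 and 649.6 CPM in BHBNa_bIRI, 649.9 and 303 CPM in bIRI, and 315, 304 and 333 CPM in Sham. The BHBNa_bIRI libraries and bIRI replicate 1 were high, and bIRI replicate 3 was just below the lowest Sham library. Eif4a2 had 219, 185 and 163 CPM in BHBNa_bIRI, 192 and 288 CPM in bIRI, and 343, 343 and 341 CPM in Sham. Every injured library was below Sham, with bIRI replicate 3 closest to it. Eif4a1 rose by 0.99 (SE 0.27; edgeR adjusted p = 0.015) and Eif4a2 fell, at -0.86 (SE 0.20; edgeR adjusted p = 0.00799); in bIRI against Sham neither passed, at 0.58 (SE 0.29; edgeR adjusted p = 0.149) and -0.51 (SE 0.23; edgeR adjusted p = 0.109). The Eif4a1 call was lost without BHBNa_bIRI replicate 1, Sham replicate 1 or Sham replicate 2 (adjusted p 0.0503 to 0.0646). A processed pseudogene, Eif4a-ps4, shares 64.9% of the 50-base words of Eif4a1 and had 1841 to 3404 counts, against 12695 to 29696 for Eif4a1.

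The 250 bases before the start of each of these genes are shown, since the pair moved apart: Eif4a1 from chr11:69672424-69672673 on the minus strand and Eif4a2 from chr16:23107218-23107467 on the plus strand (RefSeq, GRCm38.p6), with CACGTG, the E-box hexamer, in capitals.
Eif4a1: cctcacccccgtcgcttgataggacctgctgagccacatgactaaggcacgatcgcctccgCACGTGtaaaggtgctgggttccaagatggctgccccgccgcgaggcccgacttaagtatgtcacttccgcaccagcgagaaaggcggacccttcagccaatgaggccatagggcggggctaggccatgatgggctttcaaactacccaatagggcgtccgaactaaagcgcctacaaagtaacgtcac
Eif4a2: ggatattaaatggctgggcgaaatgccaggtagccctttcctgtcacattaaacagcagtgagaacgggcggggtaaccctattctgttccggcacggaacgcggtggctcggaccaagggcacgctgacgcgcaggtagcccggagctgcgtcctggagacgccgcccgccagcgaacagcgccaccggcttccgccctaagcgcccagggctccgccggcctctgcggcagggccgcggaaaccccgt
The hexamer began 189 bases before the start of Eif4a1 and was not in the window of Eif4a2. In windows of 300 bases (250 before the start and 50 after it), CACGTG, which reads the same on both strands, was present in 10 of 42 members with an entry (23.8%), against 10.9% of 12454 tested genes and 7.15% of all 32851 windows. The 10 were Eif1b, Eif3a, Eif3f, Eif3k, Eif4a1, Eif4e, Eif4g1, Eif4h, Eif5a and Eif5a2. Both strands were also searched for TGATGNAAT, the element bound by ATF4 with a C/EBP partner, found in 0 of 42 members and 0.594% of tested genes, and for TTTCGCGC, an E2F motif, found in 1 of 42 (Eif4enif1) and 0.666%. A match describes the letters alone, and 11 of the 53 members had no entry.

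Eif4b, for the cofactor that raises the activity of eIF4A, had 211, 199 and 182 CPM in BHBNa_bIRI, 241 and 185 CPM in bIRI, and 434, 409 and 310.3 CPM in Sham. All injured libraries were below all Sham libraries. It fell in bIRI against Sham, at -0.85 (SE 0.22; edgeR adjusted p = 0.0164), and in BHBNa_bIRI against Sham, at -0.96 (SE 0.20; edgeR adjusted p = 0.00396), and the call for bIRI was lost without Sham replicate 1 or Sham replicate 2 (adjusted p 0.059 to 0.0619). Eif4h, for the related cofactor, was at 0.29 (SE 0.20; edgeR adjusted p = 0.26) in BHBNa_bIRI against Sham, and Eif4a3, the helicase of the exon junction complex, at 0.36 (SE 0.23; edgeR adjusted p = 0.232); neither passed in any comparison.

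The 4E-binding protein genes Eif4ebp1 and Eif4ebp2 also changed in opposite directions, in both injured groups against Sham. Eif4ebp1 had 139, 84.9 and 112 CPM in BHBNa_bIRI, 97.3 and 30.6 CPM in bIRI, and 19.2, 21.3 and 24.1 CPM in Sham. Every injured library was above Sham, but bIRI replicate 3 was only slightly so. It rose by 1.57 (SE 0.40; edgeR adjusted p = 0.0141) in bIRI and 2.38 (SE 0.38; edgeR adjusted p = 0.00108) in BHBNa_bIRI, the largest rise of any member in that comparison. The value for bIRI was 0.44 without bIRI replicate 1, and the call was also lost without Sham replicate 1, while that for BHBNa_bIRI was called in each of the 19 alternatives. Eif4ebp2 had 148, 166 and 184 CPM in BHBNa_bIRI, 152 and 132 CPM in bIRI, and 329.8, 296 and 262 CPM in Sham. All injured libraries were below Sham, with -1.06 (SE 0.20; edgeR adjusted p = 0.00348) in bIRI and -0.83 (SE 0.17; edgeR adjusted p = 0.00416) in BHBNa_bIRI. BHBNa_bIRI against bIRI passed for neither gene, at 0.80 (SE 0.41; edgeR adjusted p = 0.195) and 0.23 (SE 0.19; edgeR adjusted p = 0.434).

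Eif4ebp3, the last of these genes, was close to the limit of detection, at 0.0466, 0.194 and 0.272 CPM in BHBNa_bIRI, 0.416 and 0.720 CPM in bIRI, and 0.447, 0.434 and 0.517 CPM in Sham, with 2 to 33 counts in a library, and it shares 65.5% of its 50-base words with the overlapping gene AC115631.1. BHBNa_bIRI was below the other groups, and no comparison passed. Eif4enif1, for the transporter that carries eIF4E into the nucleus, ran from 27.2 to 29.7 CPM in BHBNa_bIRI, stood at 30.8 and 37.4 CPM in bIRI, and ran from 24.2 to 27.8 CPM in Sham, with no call.

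**Figure D3:**
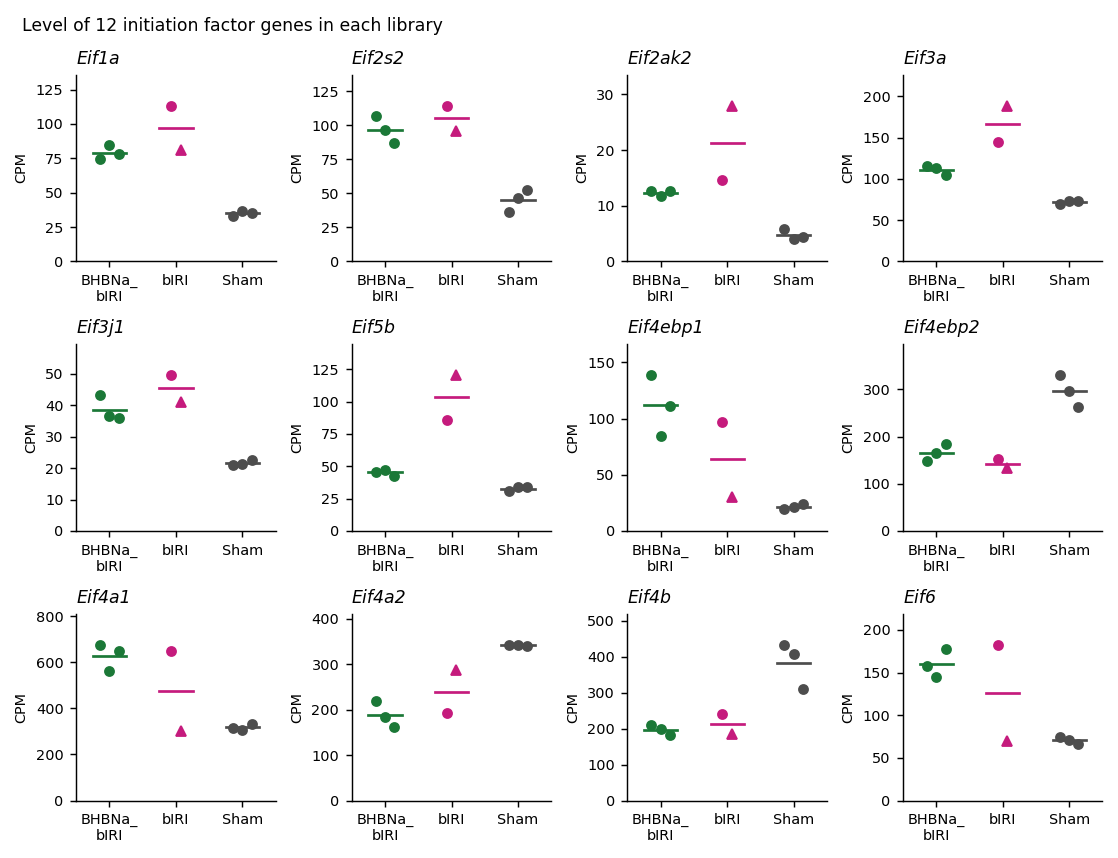
Level in CPM (vertical axes, from 0) of 12 initiation factor genes in each library of BHBNa_bIRI, bIRI and Sham, with a line at the mean of each group; the triangle is bIRI replicate 3. The genes above Sham in every injured library (such as Eif1a, Eif2s2 and Eif5b) and below it (Eif4ebp2, Eif4a2, Eif4b) can be told from those, such as Eif6 and Eif4a1, in which bIRI replicate 3 sits at the level of Sham.

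Among the factors of the last steps, Eif5b, the GTPase that joins the subunits, had 45.7, 47.5 and 42.6 CPM in BHBNa_bIRI, 86.1 and 120.4 CPM in bIRI, and 30.6, 33.9 and 33.95 CPM in Sham. The 3 groups did not overlap, with bIRI highest and Sham lowest. Eif5b rose by 1.65 (SE 0.18; edgeR adjusted p = 0.000244) in bIRI against Sham, 3.15-fold and the call with the smallest adjusted p among the members, and it fell in BHBNa_bIRI against bIRI, at -1.19 (SE 0.18; edgeR adjusted p = 0.0275). In BHBNa_bIRI against Sham it was higher by 0.46 (SE 0.16; edgeR adjusted p = 0.0423), a call lost without any 1 of the 6 libraries compared (adjusted p 0.0655 to 0.146). The neighbouring gene Rev1 overlaps 16.8% of the exon bases of Eif5b. Eif5, for the protein that triggers GTP hydrolysis by eIF2, had 158 to 185 CPM in BHBNa_bIRI, 252 and 242 CPM in bIRI and 175 to 182 CPM in Sham. Its bIRI libraries were above all others, without a call (0.46 (SE 0.17; edgeR adjusted p = 0.0557) against Sham and -0.51 (SE 0.17; edgeR adjusted p = 0.067) for BHBNa_bIRI against bIRI).

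Eif5a and Eif5a2 differed. Eif5a had 841, 696 and 913 CPM in BHBNa_bIRI, 643 and 287 CPM in bIRI, and 597, 583 and 658 CPM in Sham. BHBNa_bIRI was above both other groups, bIRI replicate 3 was far below the rest, and no comparison passed. Eif5a2 had 2.56, 4.0 and 3.80 CPM in BHBNa_bIRI, 8.73 and 6.98 CPM in bIRI, and 4.92, 4.0 and 4.29 CPM in Sham. The bIRI libraries were highest. It rose in bIRI against Sham, at 0.84 (SE 0.28; edgeR adjusted p = 0.0417), and fell in BHBNa_bIRI against bIRI, at -1.18 (SE 0.28; edgeR adjusted p = 0.0332), each call being lost without any 1 of 6 libraries. Eif6, for the protein that keeps the large subunit from joining early, had 158, 144 and 178 CPM in BHBNa_bIRI, 183 and 69.9 CPM in bIRI, and 74.6, 70.4 and 66.2 CPM in Sham. The BHBNa_bIRI libraries and bIRI replicate 1 were above Sham and bIRI replicate 3 was within the Sham range. Eif6 rose in BHBNa_bIRI against Sham, at 1.18 (SE 0.30; edgeR adjusted p = 0.0108), and in bIRI against Sham it was at 0.84 (SE 0.32; edgeR adjusted p = 0.0703). That second value was 1.38 with bIRI replicate 1 alone and -0.08 with bIRI replicate 3 alone.

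Where related genes encode alternative forms of a factor, the share of counts per base that 1 form took of its pair was compared. Eif4a1 took 82.5%, 82.3% and 85.9% of the Eif4a1 and Eif4a2 pair in BHBNa_bIRI, 83.8% and 61.6% in bIRI, and 58.4%, 57.6% and 59.9% in Sham. Every injured library was above Sham, bIRI replicate 3 by the least. Eif4ebp1 took 73.02%, 59.7% and 63.7% of its pair with Eif4ebp2 in BHBNa_bIRI, 65.02% and 40.2% in bIRI, and 14.5%, 17.2% and 21.03% in Sham. Again all injured libraries were above Sham. Eif4ebp1 was the larger of the pair in every injured library except bIRI replicate 3, and the smaller in every Sham library.

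Eif2s3x took 62.7%, 50.8% and 62.8% of the gamma subunit pair in BHBNa_bIRI, 38.4% and 27.2% in bIRI, and 66.6%, 56.9% and 52.7% in Sham. Both bIRI libraries were below all others. Eif4e took 44.1%, 50.7% and 44.95% of its pair with Eif4e2 in BHBNa_bIRI, 50.7% and 44.2% in bIRI, and 58.1%, 54.4% and 53.9% in Sham, where every injured library was below every Sham library. The share of Eif4g1 over Eif4g3 was lower in bIRI, at 80.5%, than in Sham, at 85.9%, and that of Eif1 over Eif1b was 87.3% in BHBNa_bIRI, 86.9% in bIRI and 88.2% in Sham. Over 8 pairs and 24 comparisons, the exact two-sided permutation test could not go below p = 0.1, which is 0.185 after Benjamini-Hochberg adjustment, so that no share passed a threshold of 0.05. Groups that did not overlap reached that smallest p.

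**Figure D4:**
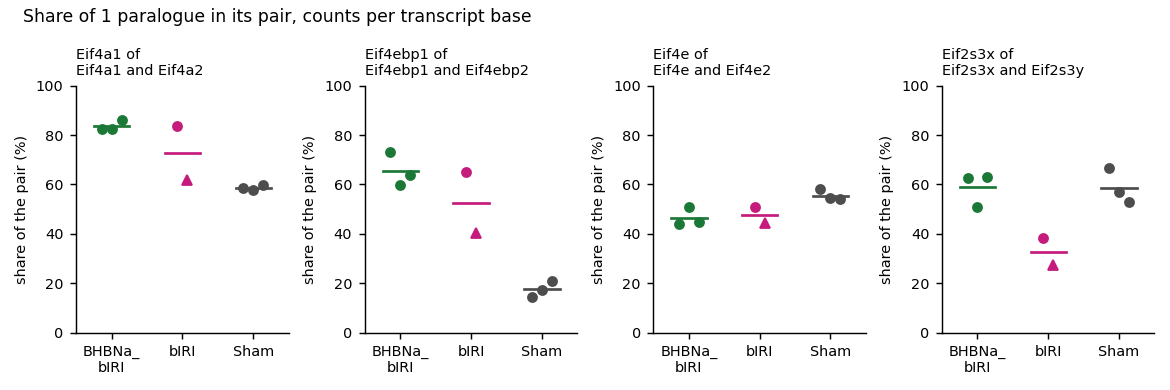
Share in percent (vertical axes, 0 to 100) that 1 gene takes of the length-scaled counts of its pair, for 4 pairs, in each library of BHBNa_bIRI, bIRI and Sham, with a line at the mean of each group; the triangle is bIRI replicate 3. Eif4a1 and Eif4ebp1 average 83.6% and 65.5% in BHBNa_bIRI, 72.7% and 52.6% in bIRI, and 58.6% and 17.6% in Sham.

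The 2 bIRI libraries placed many initiation factor genes differently, which bears on every comparison with bIRI. For 21 of 53 members they fell on opposite sides of the Sham mean. bIRI replicate 1 lay inside the range of the BHBNa_bIRI libraries for 17 members, above it for 21 and below it for 15, and bIRI replicate 3 lay inside it for 6, above it for 17 and below it for 30. The median log2 distance of the 53 members from the Sham mean was 0.46, 0.21 and 0.37 in BHBNa_bIRI and 0.26 and -0.16 in bIRI replicates 1 and 3. The total counts of these bIRI libraries were 41204065 and 33477985, with scaling factors of 1.11 and 1.37, the highest of the 8.

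The difference went with transcript length and GC content. Across the 53 members the log2 difference of bIRI replicate 3 over bIRI replicate 1 had a Spearman correlation of 0.54 with the length of the longest protein-coding transcript, and the fold change of BHBNa_bIRI against bIRI one of -0.54, where all 17928 genes tested with a length gave -0.39. For bIRI against Sham it was 0.22 for the members and 0.13 for all genes, and for BHBNa_bIRI against Sham -0.24 and -0.15. With GC content the members' correlation was -0.39 for bIRI replicate 3 over bIRI replicate 1. It was 0.60 for BHBNa_bIRI against bIRI (0.36 over all genes), -0.43 for bIRI against Sham (-0.20) and 0.14 for BHBNa_bIRI against Sham (0.06). These are descriptions across genes, which share their libraries and are not independent replicates. In the 18 members under 2000 bases, the median distance from Sham was 0.50, 0.22 and 0.60 in BHBNa_bIRI and 0.27 and -0.66 in bIRI replicates 1 and 3. In the 14 members over 4000 bases it was 0.03, 0.07 and -0.10 in BHBNa_bIRI and 0.41 and 0.52 in bIRI replicates 1 and 3. Long messages such as Eif5b and Eif4g3 were high in bIRI replicate 3 and short ones such as Eif3k and Eif5a low, and with offsets for length and GC content 0 members and 2 of all 17967 genes were called in BHBNa_bIRI against bIRI by edgeR, with 19 members at an unadjusted p under 0.05 and 18 called by DESeq2 without offsets.

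**Figure D5:**
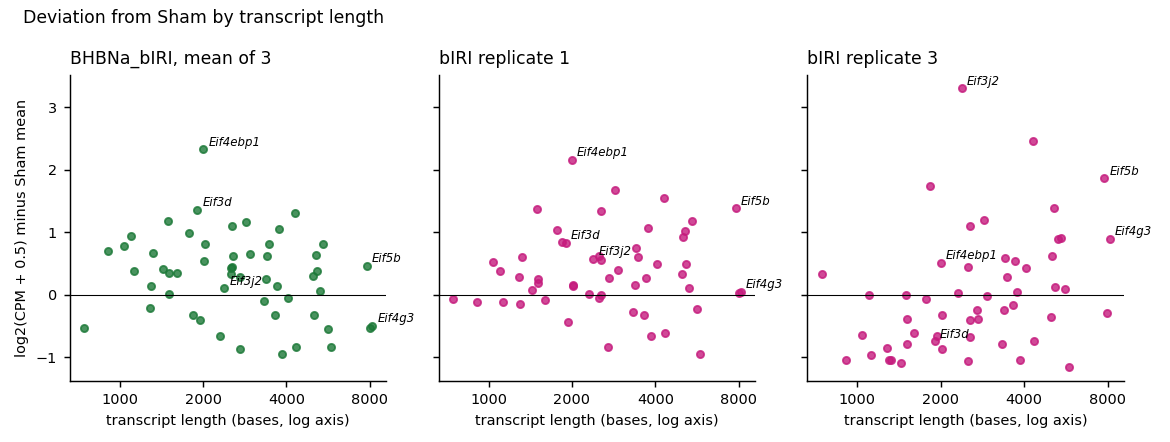
Log2(CPM + 0.5) minus the Sham mean (vertical axis) against transcript length in bases (horizontal log axis) for the 53 genes, for the mean of the 3 BHBNa_bIRI libraries, bIRI replicate 1 and bIRI replicate 3. Points of bIRI replicate 3 climb with length, with a Spearman correlation of 0.42, against 0.04 in bIRI replicate 1. The correlation was -0.27, -0.16 and -0.30 in BHBNa_bIRI replicates 1, 2 and 3, each taken alone.

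Other genes of translation were read from 6 lists. In all of them, as for the members, every call in BHBNa_bIRI against bIRI was lost without BHBNa_bIRI replicate 1, Sham replicate 1 or Sham replicate 2, where no gene of the whole table passed. Of the integrated stress response, which follows eIF2 phosphorylation, 3 of 9 genes rose in bIRI against Sham and 5 rose and 1 fell in BHBNa_bIRI against Sham. Among all genes tested, 18.9% rose in the first comparison, and 21.3% rose and 22.2% fell in the second. Atf4, for the transcription factor whose own translation rises when eIF2 is phosphorylated, had 224, 192 and 218 CPM in BHBNa_bIRI, 239.9 and 132 CPM in bIRI, and 84.3, 95.7 and 78.1 CPM in Sham. The injured libraries were all above Sham, by 1.11 (SE 0.25; edgeR adjusted p = 0.00763) in bIRI and 1.30 (SE 0.23; edgeR adjusted p = 0.00176) in BHBNa_bIRI. Atf5, a relative controlled in the same way, had 121, 67.2 and 88.5 CPM in BHBNa_bIRI, 76.7 and 30.4 CPM in bIRI, and 20.4, 19.4 and 20.4 CPM in Sham, all above Sham in the injured libraries, by 1.42 (SE 0.35; edgeR adjusted p = 0.0131) in bIRI and 2.20 (SE 0.33; edgeR adjusted p = 0.000827) in BHBNa_bIRI. Ppp1r15b, for the constitutive partner of the eIF2 phosphatase, fell in BHBNa_bIRI against Sham, at -0.68 (SE 0.19; edgeR adjusted p = 0.0168), and Ddit3, for the CHOP factor, rose there, by 1.29 (SE 0.20; edgeR adjusted p = 0.000903).

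Of 13 genes of mTORC1 and its regulators, 2 rose and 3 fell in bIRI against Sham and 5 fell in BHBNa_bIRI against Sham. Among all genes tested, 18.9% rose and 16.2% fell in the first comparison, and 22.2% fell in the second. Mtor, for the kinase that frees eIF4E from its binding proteins, had 70.1, 71.4 and 77.4 CPM in BHBNa_bIRI, 101 and 72.4 CPM in bIRI, and 231, 205 and 214 CPM in Sham. It fell in both injured groups against Sham, at -1.32 (SE 0.20; edgeR adjusted p = 0.00114) in bIRI and -1.57 (SE 0.17; edgeR adjusted p = 0.00015) in BHBNa_bIRI. Rps6kb1, for the ribosomal S6 kinase, had 13.5, 14.5 and 11.2 CPM in BHBNa_bIRI, 23.9 and 37.1 CPM in bIRI, and 9.02, 10.2 and 10 CPM in Sham. It was highest in bIRI, at 1.65 (SE 0.22; edgeR adjusted p = 0.000705) against Sham, and fell in BHBNa_bIRI against bIRI, at -1.22 (SE 0.22; edgeR adjusted p = 0.0275). In that comparison Akt1s1, for an mTORC1 inhibitor, was called higher, by 1.10 (SE 0.26; edgeR adjusted p = 0.0337), and Deptor, for another, lower, at -1.04 (SE 0.24; edgeR adjusted p = 0.0335).

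Elongation factor genes gave 1 higher and 2 lower of 8 tested in bIRI against Sham, 4 higher and 1 lower in BHBNa_bIRI against Sham, and 1 higher in BHBNa_bIRI against bIRI. Among all genes tested, 18.9% were higher and 16.2% lower in the first comparison, and 21.3% and 22.2% in the second. In the last, 4.88% were higher. Eef2, for the translocation factor, had 1511, 1351 and 1710.0 CPM in BHBNa_bIRI, 1418 and 1031 CPM in bIRI, and 2957, 2645 and 2329 CPM in Sham and fell in both injured groups, at -1.11 (SE 0.26; edgeR adjusted p = 0.00915) in bIRI and -0.79 (SE 0.22; edgeR adjusted p = 0.0171) in BHBNa_bIRI. Eef1d, for a subunit of the exchange factor of eEF1A, had 301, 234 and 331 CPM in BHBNa_bIRI, 151 and 82.3 CPM in bIRI, and 113, 116 and 144 CPM in Sham and rose in BHBNa_bIRI against Sham, by 1.21 (SE 0.25; edgeR adjusted p = 0.00409), and was called higher against bIRI, by 1.31 (SE 0.29; edgeR adjusted p = 0.0303), a call subject to the losses given above. Of 6 genes of termination and recycling, 3 rose and 1 fell in bIRI against Sham and 2 rose in BHBNa_bIRI against Sham. Abce1, for the recycling factor, rose by 1.05 (SE 0.19; edgeR adjusted p = 0.00319) in bIRI and 0.57 (SE 0.18; edgeR adjusted p = 0.0254) in BHBNa_bIRI. Etf1 rose by 0.86 (edgeR adjusted p = 0.00231) in bIRI and 0.50 (edgeR adjusted p = 0.0139) in BHBNa_bIRI. In bIRI alone, Gspt2 rose by 1.41 (edgeR adjusted p = 0.0234) and Hbs1l fell, at -0.48 (edgeR adjusted p = 0.0497).

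Of 12 genes for poly(A)-binding proteins and cap partners, 1 rose and 3 fell in bIRI against Sham and 2 rose and 3 fell in BHBNa_bIRI against Sham. Among all genes tested, 18.9% rose and 16.2% fell in the first comparison, and 21.3% rose and 22.2% fell in the second. Pdcd4, for an inhibitor of eIF4A, rose in bIRI against Sham, by 1.24 (SE 0.33; edgeR adjusted p = 0.0173), with 27.5 and 70.3 CPM in the bIRI libraries. Pabpc1, for the main poly(A)-binding protein, rose in BHBNa_bIRI against Sham, by 0.73 (SE 0.21; edgeR adjusted p = 0.0194). Paip2b and Ncbp1 fell in both injured groups against Sham. Paip2b was at -0.78 (edgeR adjusted p = 0.0198) in bIRI and -0.97 (edgeR adjusted p = 0.00302) in BHBNa_bIRI. Ncbp1 was at -0.69 (edgeR adjusted p = 0.0161) in bIRI and -0.51 (edgeR adjusted p = 0.0262) in BHBNa_bIRI. Of 7 other initiation genes, 2 rose and 1 fell in bIRI against Sham, 2 rose and 2 fell in BHBNa_bIRI against Sham and 1 fell in BHBNa_bIRI against bIRI. In that last comparison 8.65% of all genes tested fell. Denr, whose product acts in reinitiation, had 48, 42.5 and 33.4 CPM in BHBNa_bIRI, 44.6 and 43.1 CPM in bIRI, and 19.9, 21.7 and 24.99 CPM in Sham and rose in both injured groups, by 0.98 (SE 0.19; edgeR adjusted p = 0.0041) in bIRI and 0.90 (SE 0.17; edgeR adjusted p = 0.00297) in BHBNa_bIRI. Ddx3x, an X-linked helicase gene, had 106, 129.9 and 96.01 CPM in BHBNa_bIRI, 233 and 233 CPM in bIRI, and 136, 132 and 117 CPM in Sham. It was higher in bIRI than in both other groups, by 0.86 (SE 0.18; edgeR adjusted p = 0.00656) against Sham, and BHBNa_bIRI against bIRI was -1.07 (SE 0.18; edgeR adjusted p = 0.0275). Mtif3, for a mitochondrial initiation factor, fell in both injured groups against Sham, at -1.01 (SE 0.21; edgeR adjusted p = 0.0054) in bIRI and -1.38 (SE 0.18; edgeR adjusted p = 0.00041) in BHBNa_bIRI.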

How the data were processed

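Gene-level RNA-seq counts of mouse kidney were used. The authors deposited raw counts per gene, 1 table a library, and the submitters' processing notes name HISAT2, featureCounts (Subread), DESeq2 and the mm10 build; versions, annotation and strand setting are not given in the sources used here. Per the labels' protocols, total RNA was selected with oligo(dT) and sequenced in pairs, so the counts cover polyadenylated RNA. Depth was 33477985 to 45909063 counts a library.

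Counts were fitted with edgeR 4.0.16 in R 4.3.3 (TMM scaling, filterByExpr, robust quasi-likelihood test, 1 mean for each group, 8 libraries, 5 residual degrees of freedom). P-values were two-sided and adjusted by Benjamini-Hochberg over 17967 genes, with a threshold of 0.05, and fold changes are on the log2 scale. CPM used TMM-scaled library sizes, and log2 distances a pseudocount of 0.5 CPM. The fit was tested on simulated data with 200 changed genes. bIRI replicate 2 was left out of all fits except 1 alternative. Symbols, lengths and overlaps came from GENCODE M21, and promoters from RefSeq (GRCm38.p6). DESeq2 1.42.0 and other scalings, filters, offsets and left-out libraries were alternatives.

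The members and the gene lists were chosen with earlier results of these data known. Named with values in every library are the genes called in any comparison, up to the 12 largest rises and falls in each, and a set of core factors; of the pathway lists, up to 4 called genes each. 1 kinase gene is not reported here.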

Additional observations from a re-analysis of the deposited data

How the results depend on the processing

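The comparison of BHBNa_bIRI against bIRI depended most on the processing. In place of 7 members called (2 higher, 5 lower), DESeq2 called 18 (10 higher, 8 lower), the fit with bIRI replicate 2 kept (9 tables) called 24 (14 higher, 10 lower), a filter of 1 CPM in 3 libraries 14 (6 and 8), no filter 14 (9 higher) and upper-quartile scaling 11 (6 higher, 5 lower), where 25.1%, 33.2%, 19.7%, 12.1% and 13.5% of all genes were called. A fit of the compared groups alone called 0 (0 higher, 0 lower) by edgeR, as did length and GC offsets, with 17 and 19 members at an unadjusted p under 0.05; over the whole table these fits called 1 of 17407 and 2 of 17967 genes. Leaving out 1 library gave 0 to 38 called, 0 to 26 higher, 0 to 12 lower and a median of -0.035 to 0.49. The upper ends of these counts came from the fit without bIRI replicate 1. That fit holds a single bIRI library and no spread within its group, so nothing is concluded from its counts. With 1 Sham or BHBNa_bIRI library left out, 0 to 4 members were called (0% to 7.55%, against 0% to 6.49% of all genes). For bIRI against Sham, the compared groups alone gave 2 lower (3.77%, against 12.6% of all genes) and length and GC offsets a median of 0.24. Leaving out 1 Sham or BHBNa_bIRI library gave 10 to 14 called, with 8 to 11 higher and 2 to 3 lower. That was 18.9% to 26.4% of members, against 23.4% to 32.6% of all genes. The median was -0.26 to 0.27 when any 1 library was left out. For BHBNa_bIRI against Sham, the compared groups alone gave 40 called (75.5%, against 59.9% of all genes) and 30 higher, and leaving out 1 library 17 to 36 called, 12 to 27 higher, 5 to 9 lower and a median of 0.33 to 0.43. In that comparison, 17 to 22 members were called with 1 Sham or BHBNa_bIRI library left out. That was 32.1% to 41.5% of members, against 30.2% to 36.3% of all genes. The counts above 22 came from the fits that leave a single bIRI library, where the share of all genes called was higher too. Eif3d in bIRI against Sham was -0.83 without bIRI replicate 1 and 0.84 without bIRI replicate 3. The cause of these shifts was not tested. Same-numbered libraries correlated between -0.206 and 0.093, each taken as its distance from the group mean. With 2 or 3 libraries a group, such correlations cannot show whether the numbers pair the libraries. With the replicate block, 12 members were called in bIRI against Sham (22.6%, against 25.5% of all genes). In BHBNa_bIRI against Sham 20 were called (37.7%, against 36.5%). In BHBNa_bIRI against bIRI 0 were called, and 0 also with offsets, with 22 and 21 at an unadjusted p under 0.05. There 0 of all 17967 genes were called in both block fits. With 2 bIRI libraries, small differences are not detectable.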
